A study of Mus musculus with 24 samples.

Results

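The livers of newborn clones of the 20th generation were compared with the livers of newborn control mice, on 4 microarrays for each group. The clones (G20) came from cumulus cells, the somatic cells around an oocyte, by serial cloning, in which the nuclei of cloned animals are used to make the next clones. The controls (NC) were made by ICSI, the injection of a sperm into an oocyte, so both groups went through micromanipulation of the oocyte. All animals were female of the cross (C57BL/6 x DBA2) x 129/Sv, per the labels. These 8 arrays were chosen by sample title from 24 in the series, which also holds brain and, in both tissues, 4 cumulus cell clones (CC). The liver CC arrays, scanned 221 days after the NC and G20 arrays, entered the fit only to estimate the spread between arrays. All G20 arrays carry the same source name, so apart from the number in the title nothing tells whether each was a different animal. The p-values therefore rest on the spread between arrays within the 3 groups of the fit, CC included, which may be technical. RNA came from whole liver, in which fewer cells of a type and less RNA per cell cannot be told apart.

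The liver of a newborn mouse changes its work within days of birth. It stops being the main site of blood cell formation, begins to handle the fat of milk, makes its own glucose between meals, and takes up the production of plasma proteins such as apolipoproteins, protease inhibitors (serpins and macroglobulins), hormone carriers and acute phase proteins. Enzymes that clear drugs, steroids and bilirubin, chiefly cytochromes P450, sulfotransferases, glucuronosyltransferases and flavin monooxygenases, rise over the same weeks, some of them later in one sex than in the other. The defining markers of hepatocytes were present on all 8 arrays: of 13 measured markers, among them Alb, Afp, Apob and Hnf4a, all were well above background, and 1, Ttr, was called lower, a call lost in 12 of 18 alternative treatments of the data.

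Levels are log2 signals relative to the 75th percentile of each array, so that 0 is the level of a fairly bright probe and a difference of 1 is a 2-fold change. A gene was represented by its brightest probe, among those well above background on every array of at least 1 of the groups, and a gene was called at a limma adjusted p under 0.05. Of 16701 genes tested, 1193 (7.14%) were called, 708 higher (4.24%) and 485 lower (2.9%) in G20. Called differences of at least 2-fold numbered 296 (1.77%), 142 higher (0.85%) and 154 lower (0.922%). The median difference over all genes was 0.03. With arrays centred on the median probe in place of the 75th percentile, the median was −0.04 and the calls were 377 higher and 669 lower, so the direction that prevails among small differences depends on the scaling. With genes split by mean level into 5 equal bins, the dimmest bin had a median difference of 0.15 and held 274 of the 708 higher calls and 85 of the lower ones. Counts also moved with single arrays: the total of 1193 was 642 without NC replicate 1, 611 without NC replicate 2, 598 without G20 replicate 2 and 677 without G20 replicate 4. Errors of differences are standard errors of the fit, with 4 arrays per group unless stated. Counts at an unadjusted p under 0.05 are given for some lists. The share of all genes at that p was not counted, and it is at least the 7.14% called.

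**Figure D1:**
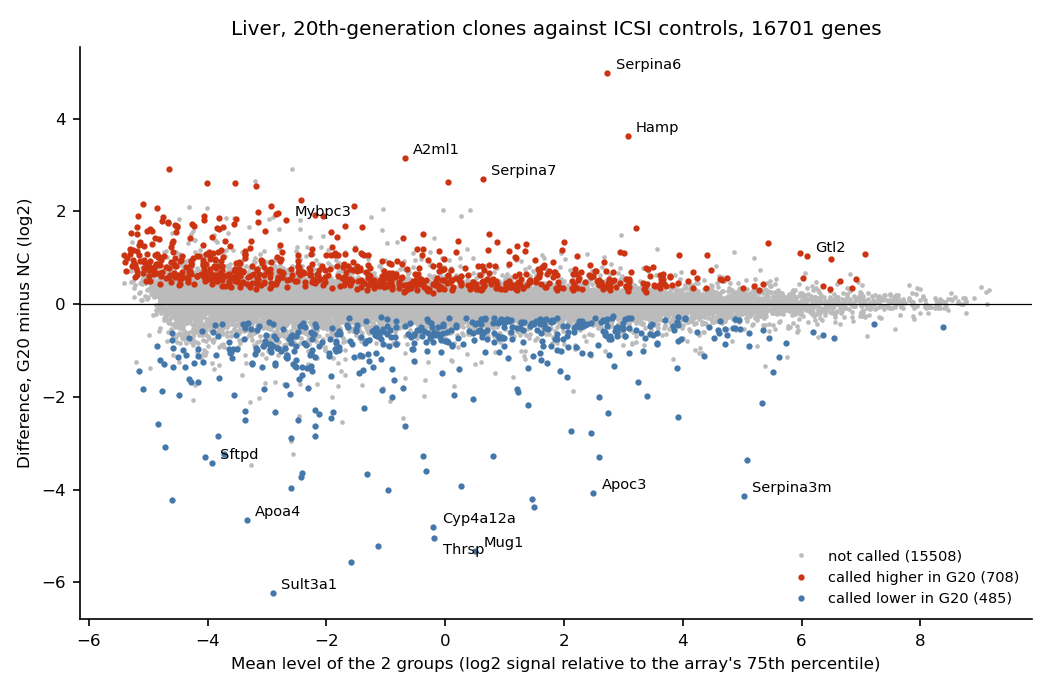
Difference between G20 and NC liver (log2) against the mean level of both groups (log2, relative to the 75th percentile of the array), with 1 point per gene. Grey points were not called, red points were called higher (708) and blue points lower (485). The points farthest from 0 are Serpina6 (4.99) above and Sult3a1 (−6.24) below.

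Groups differed in signal before scaling. The 75th percentile was 275.9 to 340.8 on the NC arrays and 440.5 to 561.2 on the G20 arrays, and the share of probes well above background was 59.0% ± 0.80 (SD, n = 4) in NC and 62.2% ± 1.0 (SD, n = 4) in G20, a difference of 3.2 points (exact two-sided permutation test, p = 0.0286, the smallest value that 70 splits allow). A slide held the arrays of 1 group, and thus the slide and the group cannot be told apart. The spread of arrays around the others of their group averaged 0.354 in NC and 0.307 in G20 (log2, exact two-sided permutation test, p = 0.3429). Each value uses the other arrays of its group, so the values are not independent and this p is only a guide. An array in each group lay closer to the other group than its companions did. Over the 326 genes called and at least 2-fold different without it, NC replicate 4 lay a median 26.3% of the way from the other controls to G20 (the other NC arrays, each treated in the same way, −3.4% to 10.9%). Likewise G20 replicate 3 lay 21.7% of the way to NC over 288 such genes (the other G20 arrays −2.14% to 9.64%).

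The clones had less RNA of genes that build fatty acids. Of 28 measured genes, 10 fell (35.7%, against 2.9% of all genes), none rose, and the median difference was −0.82. Hepatic fatty acid synthesis turns citrate into malonyl-CoA and then palmitate, which is desaturated, elongated and esterified. Insulin drives it through SREBP1c, and glucose through ChREBP (Mlxipl).

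Thrsp, a thyroid hormone-responsive regulator of the pathway, stood at 2.82, 2.27, 2.02 and 2.23 on the NC arrays and −4.29, −2.50, −0.13 and −3.88 on the G20 arrays. All G20 arrays were lower, and G20 replicate 3 was the nearest to the controls. Thrsp fell by 5.04 ± 0.75 (limma adjusted p = 0.00321), about 32.8-fold.

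Among enzymes of the list, Acacb, the beta form of acetyl-CoA carboxylase, was at 4.24, 3.93, 3.83 and 3.65 on the NC arrays and 1.20, 1.25, 2.999 and 0.83 on the G20 arrays. It fell by 2.34 ± 0.40 (limma adjusted p = 0.0067). Fasn, the fatty acid synthase, was at 6.16, 6.13, 6.32 and 6.35 on the NC arrays and at 4.30 and 5.26 on G20 replicates 1 and 4. Its spots on the remaining 2 G20 arrays were marked as outliers and left out, and on the 2 that remained it fell by 1.46 ± 0.23 (limma adjusted p = 0.00768). Fasn was not called when the outlier spots were kept or in the deposited table of values, and over its alternatives the difference ran from −2.65 to −0.87. Me1, which supplies NADPH, fell by 1.48 ± 0.27, and Slc25a1, the citrate carrier of the mitochondrion, by 0.48 ± 0.12 (limma adjusted p = 0.00966 and 0.0287). Slc25a1 was not called under 7 of 18 alternatives.

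Enzymes that modify the product moved the same way. Scd1, which desaturates stearoyl-CoA, stood at 4.06, 4.005, 4.25 and 3.04 on the NC arrays and −1.13, 1.20, 3.20 and 0.99 on the G20 arrays. The level of G20 replicate 3 was above that of NC replicate 4, so the groups overlapped. Scd1 fell by 2.77 ± 0.69 (limma adjusted p = 0.0347), a call lost in 7 of 18 alternative treatments of the data. The elongases Elovl5, Elovl2 and Elovl6 fell by 1.67 ± 0.36, 1.39 ± 0.34 and 1.01 ± 0.22, and Gpam, the first acyltransferase of triglyceride synthesis, by 0.80 ± 0.17 (limma adjusted p = 0.0183, 0.0307, 0.0188 and 0.0164). For Elovl5 and Elovl2 the groups overlapped, since NC replicate 4 had 2.93 and 3.46 against 4.32 to 4.63 and 4.61 to 5.19 on the other NC arrays, and their calls were lost in 5 of 18 and 8 of 18 alternatives.

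Regulators and some other members were less clear. Srebf1 was at 6.00 to 6.09 on all NC arrays and at 5.04, 5.67, 6.14 and 5.17 on the G20 arrays, a difference of −0.52 ± 0.19 that was not called (limma adjusted p = 0.124). Acly, which cleaves citrate, differed by −0.73 ± 0.29 and Mlxipl by −0.18 ± 0.17 (limma adjusted p = 0.154 and 0.557), and in both G20 replicate 3 lay within the range of the controls. Nr1h3, the oxysterol receptor LXRα, which induces Srebf1, fell by 0.65 ± 0.10 (limma adjusted p = 0.00506).

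Measured against the control mean, the median member of the list stood at −1.09, −0.82, −0.22 and −0.96 on G20 replicates 1 to 4. Without G20 replicate 3 the number of members that fell was 18 in place of 10. It was 5 without NC replicate 1, 6 without NC replicate 2, 5 without G20 replicate 2 and 6 without G20 replicate 4, and none rose in any of these fits.

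**Figure D2:**
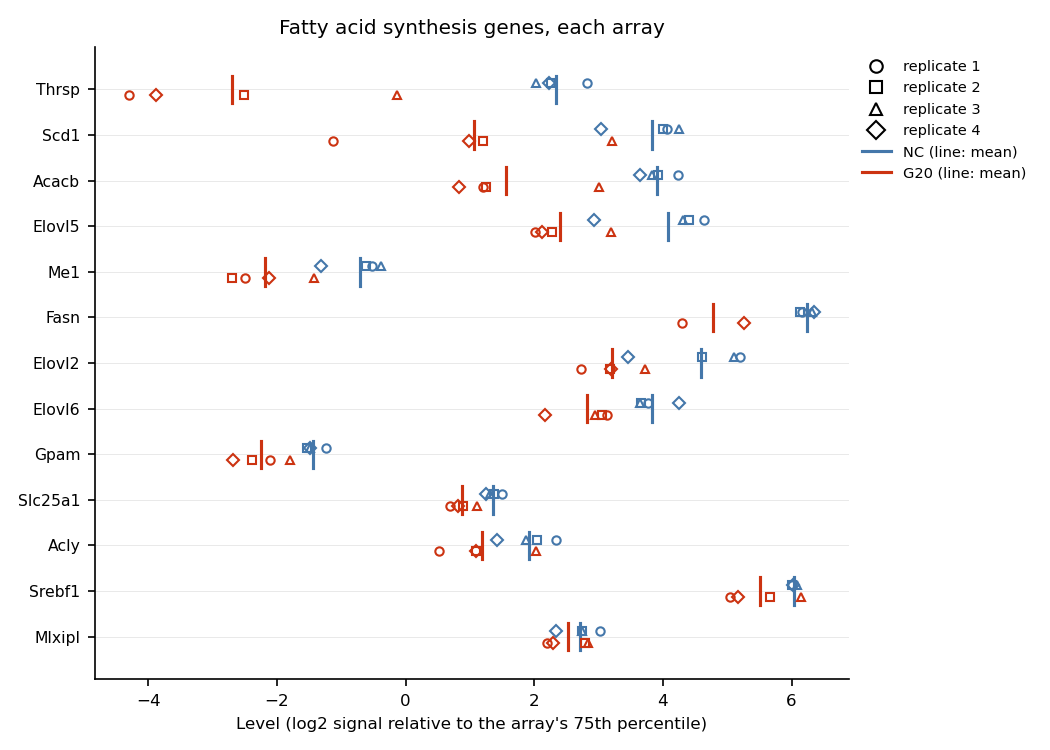
Level of fatty acid synthesis genes on each array (log2, relative to the 75th percentile), blue for NC and red for G20, with vertical lines at the group means and a symbol for each replicate. G20 replicate 3 (triangles) lies nearest the controls for Thrsp (−0.13), Scd1 (3.20) and Acacb (2.999). Fasn has values on 2 G20 arrays.

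The 250 bases before the annotated start of 9 of the 10 genes that fell were searched for motifs known from lipogenic promoters, because these genes moved together. The sequences are RefSeq's (GRCm38.p6), shown 5′ to 3′ on the strand of the gene for the gene with the largest fall, the synthase, and the 2 genes with an E-box. Capitals mark matches on either strand to the E-box CACGTG, to the CCAAT box, to the TATA box (TATAAA) or to TCACNCCAC, a core of SREBP sites. In Fasn a forward and a reverse CCAAT box share 2 bases.
Thrsp, chr7:97417551-97417800, minus strand: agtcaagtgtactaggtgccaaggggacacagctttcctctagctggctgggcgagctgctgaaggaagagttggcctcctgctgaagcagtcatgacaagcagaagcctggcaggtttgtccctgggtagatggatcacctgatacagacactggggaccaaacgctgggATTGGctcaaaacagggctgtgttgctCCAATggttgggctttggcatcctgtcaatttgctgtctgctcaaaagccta
Fasn, chr11:120824548-120824797, minus strand: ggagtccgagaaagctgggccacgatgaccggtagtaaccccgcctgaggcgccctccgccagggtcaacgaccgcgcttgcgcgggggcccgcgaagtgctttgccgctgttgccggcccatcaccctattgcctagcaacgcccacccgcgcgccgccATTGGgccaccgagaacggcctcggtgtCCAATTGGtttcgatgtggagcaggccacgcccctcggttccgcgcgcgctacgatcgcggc
Elovl5, chr9:77917115-77917364, plus strand: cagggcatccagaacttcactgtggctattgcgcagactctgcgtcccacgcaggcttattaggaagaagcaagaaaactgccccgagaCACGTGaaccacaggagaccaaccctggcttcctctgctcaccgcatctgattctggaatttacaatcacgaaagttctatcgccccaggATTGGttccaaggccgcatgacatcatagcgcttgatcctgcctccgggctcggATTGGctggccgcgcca
Slc25a1, chr16:17928220-17928469, minus strand: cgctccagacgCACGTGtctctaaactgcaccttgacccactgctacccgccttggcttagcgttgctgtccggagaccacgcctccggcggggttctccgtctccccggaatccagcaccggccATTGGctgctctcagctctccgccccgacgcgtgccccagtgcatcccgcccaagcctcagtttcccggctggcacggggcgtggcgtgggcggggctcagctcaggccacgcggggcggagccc
CCAAT occurred in the window of 7 of the 9 genes (Acacb, Elovl5, Fasn, Gpam, Me1, Slc25a1 and Thrsp), against 37.5% of all 27025 genes with such a window. CACGTG occurred in 2, Elovl5 and Slc25a1 (6.86% of all genes), TATAAA in 1, Acacb (14.3%), and TCACNCCAC in none (1.22%). Windows of genes with several annotated starts were counted together, and a match is a string of letters, not a measured site.

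Other routes of fuel metabolism had fewer called genes. Fgf21, a fasting hormone of the liver, was well above background on all NC arrays, at −2.01, −3.25, −3.03 and −4.43, and on no G20 array. It was at least 6.82-fold lower in G20 (limma adjusted p = 0.00402). In this bound a G20 array counts at the dimmest measurable signal where its own signal was lower. Of 44 genes of fatty acid oxidation and ketogenesis 1 rose and 1 fell (2.3% each, against 4.24% and 2.9% of all genes). Acadl rose (0.54 ± 0.13, lost in 8 of 18 alternatives) and Fgf21 fell, with a list median of 0.06. Cpt1a, the gate of mitochondrial oxidation, differed by −0.25 ± 0.15 (limma adjusted p = 0.336). Of 28 cholesterol genes 1 rose, Acat2, and 1 fell, Hsd17b7 (3.6% each), with a median of −0.32. These calls were lost in 8 of 18 and 6 of 18 alternatives. The cholesterol list had 5 genes lower without G20 replicate 3. In glucose handling 4 of 37 genes fell (10.8%, against 2.9% of all genes) and none rose. The glucose list had 1 called gene without NC replicate 1 or 2 or without G20 replicate 2 or 4. G6pc, which releases glucose, differed by −0.12 ± 0.37 (limma adjusted p = 0.878).

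Apoc3, Apoa4 and Apoa5, apolipoprotein genes that neighbour each other on chromosome 9, fell, while Apoa1 beside them was not called. The called features lay between 45984265 and 46022053 (mm8), with an unnamed probe beside Apoa4 that also fell, and the ends of this interval are those of the called genes. Apoc3, which slows the clearance of triglyceride-rich lipoproteins, was at 5.20, 4.93, 4.36 and 3.65 on the NC arrays and 1.53, 0.80, −0.20 and −0.33 on the G20 arrays. It fell by 4.08 ± 0.55 (limma adjusted p = 0.00173). Apoa4, a product of fat-fed intestine and newborn liver, was at −0.28, −0.27, −0.54 and −2.96 on the NC arrays and −4.66, −6.07, −6.33 and −5.61 on the G20 arrays. It fell by 4.65 ± 0.86 (limma adjusted p = 0.00976). Its probe was well above background on 1 of 4 G20 arrays. Apoa5, which promotes triglyceride lipolysis, fell by 2.44 ± 0.47 (limma adjusted p = 0.0118). NC replicate 4 was the lowest control for all of these genes, and without it their differences were −4.38, −5.30 and −2.96. Apoa1, the main protein of HDL, whose probe lies next to that of Apoc3, differed by −0.31 ± 0.09 (limma adjusted p = 0.0602). Over 28 genes of the apolipoprotein list 4 fell and 1 rose (14.3% and 3.6%, against 2.9% and 4.24% of all genes), with a median of −0.16. The riser was Saa4, a constitutive apolipoprotein of HDL, with 1.41, 1.34, 0.98 and 1.603 on the NC arrays and 3.03, 2.53, 2.69 and 2.41 on the G20 arrays. It rose by 1.33 ± 0.16 (limma adjusted p = 0.00101). Apob and Apoe differed by 0.20 ± 0.25 and −0.12 ± 0.09 (limma adjusted p = 0.68 and 0.442).

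Serpins, a family of protease inhibitors and hormone carriers, changed strongly in both directions. Of 15 measured Serpina genes, 2 rose and 5 fell (13.3% and 33.3%, against 4.24% and 2.9% of all genes), with a median of −0.56. These counts were 2 and 5 or 6 whichever single array was left out. Serpina6, which encodes the glucocorticoid carrier of plasma, stood at −0.86, −0.26, −0.52 and 2.58 on the NC arrays and 4.37, 4.90, 5.49 and 6.14 on the G20 arrays. It rose by 4.99 ± 0.74 (limma adjusted p = 0.00327), about 31.7-fold. NC replicate 4 lay between the other controls and the clones, and without it the difference was 5.77. Serpina7, the thyroxine carrier, on the X chromosome, stood at −0.36, −0.59, −0.02 and −1.87 on the NC arrays and 2.38, 1.93, 1.44 and 2.20 on the G20 arrays. It rose by 2.70 ± 0.36 (limma adjusted p = 0.00176), and here NC replicate 4 was the control farthest from G20.

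Serpina6 opens a cluster of inhibitor genes on chromosome 12 whose far end moved the other way. Between 104047720 and 104795240 (mm8) 16 features were tested, of which 1 rose and 7 fell. The 5 features that follow Serpina6, among them Serpina1b, Serpina1d and Serpina1c, differed by −0.56 to 0.34 and were not called. Farther on, Serpina4-ps1 fell by 3.63 ± 0.49, Serpina5 by 3.28 ± 0.48, and Serpina3c by 4.38 ± 0.51 (limma adjusted p = 0.00182, 0.00319 and 0.000931). Last in the stretch, Serpina3k fell by 3.37 ± 0.43 and Serpina3m fell by 4.14 ± 0.39 (limma adjusted p = 0.00143 and 0.000278). Serpina5 inhibits activated protein C, and the Serpina3 genes are the expanded mouse relatives of human antichymotrypsin. Serpina3m was at 7.33, 7.46, 6.99 and 6.61 on the NC arrays and 3.12, 3.70, 3.33 and 1.68 on the G20 arrays, and the groups did not overlap. Not called within this end were Serpina3a, at −0.90 ± 1.17 with controls spread from −5.45 to −0.24, Serpina3g, at −0.59 ± 0.28, and LOC667984, at 0.42 ± 0.39 (limma adjusted p = 0.689, 0.219 and 0.546). Serpina3 copies resemble each other, and a probe may read several of them.

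Mug1 and Mug2, the murinoglobulins, broad protease traps of mouse plasma, lie 196.5 kb apart on chromosome 6, and they and a feature beyond them (NAP001160-001, between 122209548 and 122209773, mm8) all fell. Mug1 was at 3.76, 3.64, 3.80 and 1.49 on the NC arrays and −2.66, −2.10, −1.17 and −2.73 on the G20 arrays. It fell by 5.34 ± 0.53 and Mug2 by 5.22 ± 0.54 (limma adjusted p = 0.000388 and 0.00087). Both are close copies that a probe may not separate, and NC replicate 4 was the control nearest to G20 for both. A2ml1, a macroglobulin relative on the same chromosome, went the other way: it was at −2.44, −1.80, −1.84 and −2.96 on the NC arrays and 1.07, 0.76, 0.52 and 1.22 on the G20 arrays and rose by 3.15 ± 0.28 (limma adjusted p = 0.000179).

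**Figure D3:**
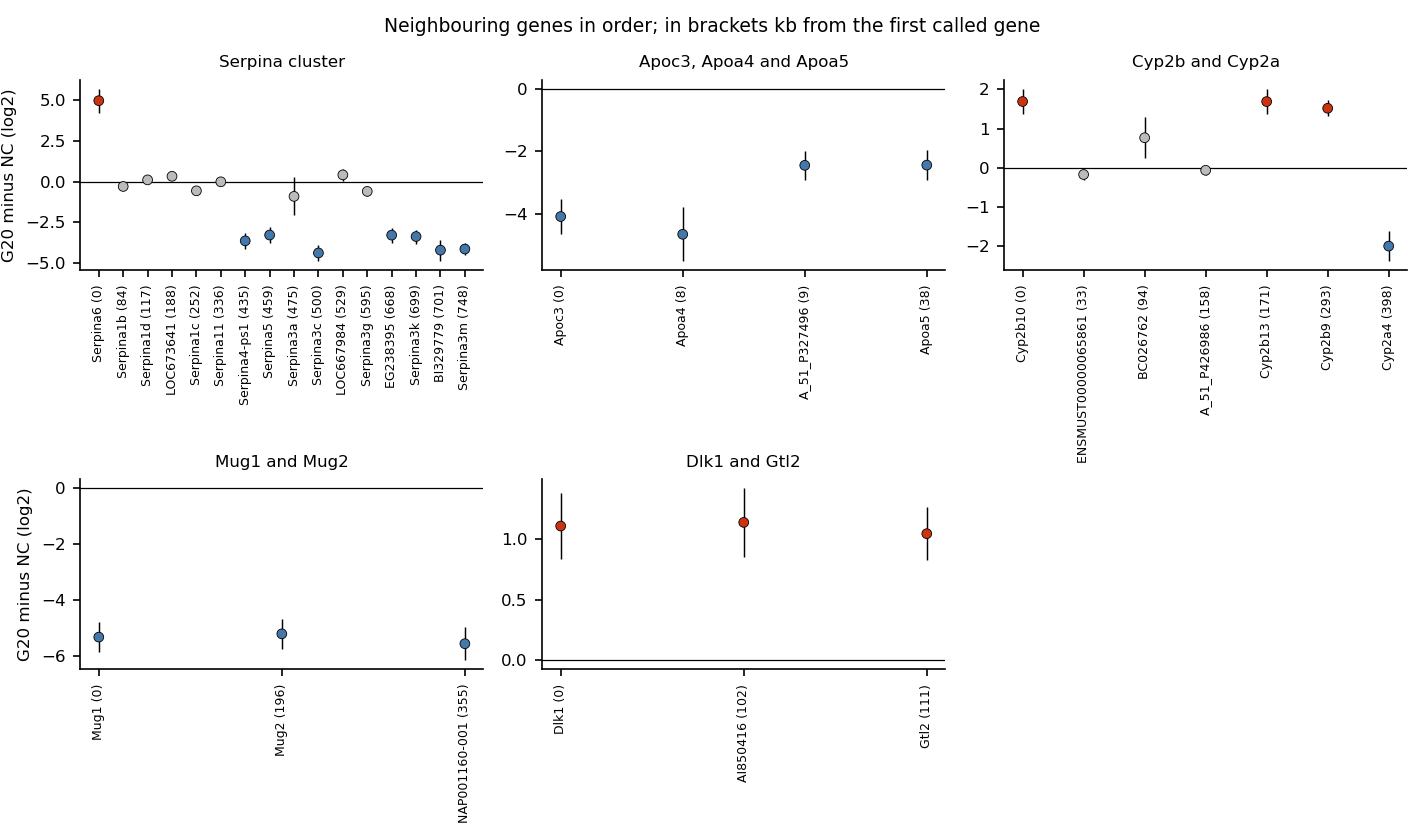
Difference between G20 and NC (log2, bars are SE of the fit) of all measured features in 5 stretches with at least 3 genes called and at least 2-fold different, each within 500 kb of the next, in chromosomal order, with the distance from the first called feature in kb in brackets. Red was called higher, blue lower, grey not called. Each stretch begins and ends with a called feature. The 4 features from Apoc3 to Apoa5 fell and the 3 from Dlk1 to Gtl2 rose, while the Serpina stretch held 1 rise and 7 falls.

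These stretches were picked out after their values were seen. The rule, at least 3 genes called and at least 2-fold different with no gap over 500 kb, found 15 stretches with 55 of the 296 genes.

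Hepcidin and acute phase proteins did not move together. Hamp, the hormone that blocks iron export, stood at 0.63, 2.15, 0.75 and 1.49 on the NC arrays and 4.30, 4.58, 4.44 and 6.21 on the G20 arrays. Every G20 array lay above the highest control, and Hamp rose by 3.63 ± 0.43 (limma adjusted p = 0.00105), about 12.3-fold. Genes that share its known inputs were not called: Id1 differed by 0.42 ± 0.21, Smad7 by 0.23 ± 0.15 and Bmp6 by 0.64 ± 0.25 on the BMP side, and Socs3 by 0.01 ± 0.31 and Saa1 by −0.51 ± 0.59 on the interleukin side (limma adjusted p = 0.263, 0.372, 0.149, 0.99 and 0.65). Tfrc, the transferrin receptor, differed by −0.43 ± 0.17 (limma adjusted p = 0.157). Of 25 iron genes 1 rose and 2 fell (4% and 8%, against 4.24% and 2.9% of all genes). The falls were 0 to 2 with any single array left out. Of 29 acute phase genes 2 rose and 7 fell (6.9% and 24.1%), with a median of 0.01. The largest fall of this list was that of Serpina3m and the largest rise that of Saa4, genes also counted in lists above. The orosomucoids Orm1 and Orm2, plasma carriers of basic drugs, fell by 3.97 ± 0.67 and 3.73 ± 0.65, and the lectin Mbl2, which binds microbial sugars, by 2.14 ± 0.34 (limma adjusted p = 0.00641, 0.00727 and 0.00473). Orm1 was at 0.13, −0.34, −0.50 and −1.73 on the NC arrays and −5.08, −4.10, −4.03 and −5.12 on the G20 arrays, with NC replicate 4 the lowest control. The fibrinogen chain Fgb differed by 0.00 ± 0.10 (limma adjusted p = 0.991), but was called lower, at −0.39, after quantile normalization. Few complement and coagulation genes were called. In the first list 2 of 28 rose and 1, Mbl2, fell (7.1% and 3.6%). In the second 1 of 34 rose and 2 fell, Serpina5 among them (2.9% and 5.9%). With any single array left out the risers were 1 to 3 and 0 to 2.

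Enzymes of drug and steroid metabolism fell more often than they rose. Of 50 cytochromes P450, 11 fell and 5 rose (22% and 10%, against 2.9% and 4.24% of all genes), with a median of −0.32. The risers were 3 without any 1 of NC replicates 1, 2 and 3 and G20 replicates 1 and 2, and the falls 8 to 10 with any array left out. Cyp4a12a, a fatty acid hydroxylase abundant in adult males, stood at 2.52, 1.86, 2.07 and 2.39 on the NC arrays and −2.78, −2.45, −1.93 and −3.29 on the G20 arrays. It fell by 4.82 ± 0.24 (limma adjusted p = 1.57e-06). Cyp3a25, a steroid hydroxylase, fell by 2.75 ± 0.49, Cyp2c29 by 1.15 ± 0.15, and Cyp2a5, the coumarin hydroxylase, by 1.98 ± 0.39 (limma adjusted p = 0.00837, 0.00173 and 0.0133). Cyp3a11 and Cyp2e1, the main adult forms of their subfamilies, differed by −0.41 ± 0.29 and −0.26 ± 0.26 (limma adjusted p = 0.412 and 0.585). Of the 5 risers 4 were Cyp2b genes, a subfamily that holds the phenobarbital-inducible Cyp2b10. Cyp2b9 stood at 0.04, 0.30, 0.30 and −0.70 on the NC arrays and 1.63, 1.602, 1.26 and 1.52 on the G20 arrays and rose by 1.52 ± 0.20. Cyp2b13 rose by 1.69 ± 0.33 and Cyp2b10 by 1.69 ± 0.33 (limma adjusted p = 0.00173, 0.0119 and 0.0123), and Cyp2b10 was measurable on 1 of 4 NC arrays. They lie within 398 kb of Cyp2a4 on chromosome 7, which fell by 2.003 ± 0.39 (limma adjusted p = 0.0119), and the members of each subfamily are close copies.

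Conjugating enzymes included the largest fall of all. Sult3a1, a sulfotransferase of adult female liver, was at 2.20, −2.08, 2.12 and −1.39 on the NC arrays, in which the controls split into a high and a low pair, and on no G20 array was it well above background. It was at least 63.8-fold lower in G20 (limma adjusted p = 0.00239). Sult5a1 fell by 2.37 ± 0.33 (limma adjusted p = 0.0023), while Sult1a1, the general phenol form, differed by 0.19 ± 0.08 (limma adjusted p = 0.195). Of 15 glucuronosyltransferases 5 fell and 1 rose (33.3% and 6.7%, against 2.9% and 4.24% of all genes). In this list 3 fell without NC replicate 2 or 3 or without G20 replicate 2. Ugt1a1, the enzyme that conjugates bilirubin, was at 0.96, 1.41, 1.36 and 0.80 on the NC arrays and −0.90, −0.45, −0.34 and −1.63 on the G20 arrays. It fell by 1.96 ± 0.30, and Ugt2a3 fell by 2.85 ± 0.27 (limma adjusted p = 0.00374 and 0.000287). Ugt1a9, which shares its later exons with Ugt1a1, was at least 2.61-fold higher in G20, and no NC array measured it (limma adjusted p = 0.0219, a call lost in 5 of 16 alternatives). Of 12 carboxylesterases 3 fell (25%), Ces3b by 3.29 ± 0.39, Ces1f by 2.85 ± 0.57 and Ces2e by 1.03 ± 0.13 (limma adjusted p = 0.00101, 0.0141 and 0.00145). Only 2 of 4 G20 arrays had Ces1f well above background. Over its alternatives the difference ran from −3.35 to −1.57. Of 23 glutathione S-transferases 2 rose and 1 fell (8.7% and 4.3%), the risers being 0 to 2 with any single array left out. Gsta2, measurable on 3 of 4 NC arrays, rose by 1.73 ± 0.38 (limma adjusted p = 0.0212, a call lost in 5 of 17 alternatives). Acnat2, which conjugates fatty acids with taurine, fell by 4.003 ± 0.43 (limma adjusted p = 0.000761).

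Flavin monooxygenases oxidise nitrogen and sulfur in drugs and other small molecules. Fmo2 was at −1.79, −2.20, −2.21 and −2.31 on the NC arrays and −4.82, −4.50, −4.40 and −4.82 on the G20 arrays, with all G20 arrays below all NC arrays. Fmo2 fell by 2.51 ± 0.42 and Fmo4 by 1.09 ± 0.23, and Fmo1, the main form of the immature liver, differed by −0.20 ± 0.14 (limma adjusted p = 0.00573, 0.0174 and 0.402). LOC552906, a feature near Fmo4 on chromosome 1, rose by 1.25 ± 0.14 (limma adjusted p = 0.000931).

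Genes known to differ between adult males and females included called genes of both directions, though all animals were newborn females. Over all genes 2.9% fell and 4.24% rose. Of 15 genes biased to adult male liver 5 fell and 1 rose (33.3% and 6.7%), with a median of −0.47, and the falls included Hsd3b5, a steroid dehydrogenase, at −1.16 ± 0.22 (limma adjusted p = 0.0112). Of 25 genes biased to adult female liver 5 fell and 5 rose (20% and 20%). The falls included Sult3a1, Fmo2, Fmo4 and Cyp2a4, and the rises were Cyp2b9, Cyp2b10, Cyp2b13, Rdh16 and Tox. Rdh16, a retinol dehydrogenase, rose by 1.96 ± 0.31 (limma adjusted p = 0.00473). The counts of the female list were 5 higher and 4 to 6 lower with any single array left out.

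Igf1 and other genes of the growth hormone and IGF axis fell. No gene of 23 rose and 5 fell (21.7%, against 2.9% of all genes), while the median was −0.05. Without NC replicate 2, 3 fell. Igf1, the growth factor that the liver releases under growth hormone, was at 2.21, 2.41, 2.19 and 2.01 on the NC arrays and 0.71, 0.96, 1.37 and 0.97 on the G20 arrays. It fell by 1.20 ± 0.22, and Socs2, an inhibitor that the same receptor induces, by 1.05 ± 0.20 (limma adjusted p = 0.00902 and 0.0108). Igfbp5, an IGF-binding protein, fell by 1.01 ± 0.14 (limma adjusted p = 0.00225). The receptor Ghr differed by −0.40 ± 0.11, Igfals, the acid-labile subunit, by −0.24 ± 0.24, and Igfbp1 and Igfbp2 by 0.03 ± 0.11 and −0.21 ± 0.39 (limma adjusted p = 0.0522, 0.574, 0.912 and 0.781).

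Imprinted genes, which are read from the copy of 1 parent, included called genes of both directions. Of 23 genes read from the paternal copy 6 rose and 2 fell (26.1% and 8.7%), and of 27 read from the maternal copy 2 rose and 2 fell (7.4% and 7.4%), against 4.24% and 2.9% of all genes, with medians of 0.23 and 0.14. Without NC replicate 2 or G20 replicate 2 the paternal list had 3 genes higher, and without any 1 of NC replicates 1, 2 and 3 and G20 replicates 2, 3 and 4 it had none lower. In the maternal list none was higher without NC replicate 1 or 2, 1 without NC replicate 3 or any single G20 array, and 3 without NC replicate 4. Impact, a regulator of translation, had NC arrays at 0.53 to 1.01 and G20 arrays at 1.90 to 1.995. Zrsr1, a splicing factor gene, was at 0.95 to 1.14 in NC and 1.97 to 1.99 in G20. Plagl1, a growth regulator, was at 3.60 to 4.19 in NC and 4.78 to 5.20 in G20. The 3 rose by 1.15 ± 0.12, 0.95 ± 0.16 and 1.07 ± 0.15 (limma adjusted p = 0.000497, 0.00634 and 0.00228), and for each the range within G20 was smaller than the gap between groups.

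Within the imprinted stretch of chromosome 12, genes of both parental copies rose. Dlk1, read from the paternal copy, was at 4.95, 5.12, 5.31 and 6.29 on the NC arrays and 6.49, 6.45, 6.45 and 6.71 on the G20 arrays, and Gtl2 (Meg3), a noncoding RNA read from the maternal copy, at 5.27, 5.28, 5.50 and 6.22 on the NC arrays and 6.50, 6.63, 6.53 and 6.77 on the G20 arrays. They rose by 1.11 ± 0.27 and 1.04 ± 0.22, and the unnamed transcript AI850416 between them by 1.14 ± 0.28 (limma adjusted p = 0.0311, 0.0162 and 0.0349). In all 3 NC replicate 4 lay just under the G20 arrays, and without it the differences were 1.40, 1.26 and 1.35. The calls of Dlk1 and AI850416 were lost in 7 of 18 and 7 of 18 alternatives, and that of Gtl2 without NC replicate 1 or 2. Cdkn1c, a maternally read inhibitor of cell division, had NC replicate 4 at 6.11 amid G20 arrays at 5.84 to 6.54, and the other controls at 4.29 to 4.36. It rose by 1.32 ± 0.35 (limma adjusted p = 0.0444), a call lost in 11 of 18 alternatives, and its difference was 1.76 without that array. Snrpn stood at −0.35 on G20 replicate 1, as in the controls (−0.36 to 0.02), and at −2.12, −2.10 and −1.80 on the other G20 arrays. It fell by 1.41 ± 0.36, and Snurf, read from the same transcript, by 1.43 ± 0.35 (limma adjusted p = 0.0392 and 0.0334, calls lost in 11 of 18 and 8 of 18 alternatives).

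Genes of stress and signalling changed by smaller amounts. Of 29 endoplasmic reticulum genes 7 rose and none fell (24.1% against 4.24%), with a median of 0.21. Derl3, part of the machinery that returns misfolded proteins to the cytosol, was at −4.79, −4.72, −4.37 and −4.69 on the NC arrays and −3.08, −3.16, −3.34 and −3.22 on the G20 arrays and measurable on 2 of 4 NC arrays. It rose by 1.44 ± 0.17 (limma adjusted p = 0.000931). The chaperone Dnajb9 rose by 0.47 ± 0.09 (limma adjusted p = 0.0105), and Hspa5 and Xbp1, the central chaperone and regulator, differed by 0.31 ± 0.11 and 0.09 ± 0.11 (limma adjusted p = 0.122 and 0.7). Only 2 genes of this list rose without any 1 of NC replicates 1 and 2 and G20 replicates 2, 3 and 4, and 3 without NC replicate 3. With median scaling 3 rose and 1 fell. All 23 immediate early genes had differences above 0, with a median of 0.64, but 3 were called (13%, against 4.24% of all genes). They were Ccn1 (1.34 ± 0.34), Zfp36 (0.90 ± 0.22) and Dusp1 (0.69 ± 0.19), with limma adjusted p = 0.0393, 0.03 and 0.0495. Fos, Egr1 and Atf3 differed by 1.09 ± 0.52, 1.09 ± 0.46 and 1.91 ± 0.56, with overlapping groups (limma adjusted p = 0.228, 0.175 and 0.0643). Ccn1 was not called under 8 of 18 alternatives, Zfp36 under 6 of 18 and Dusp1 under 15 of 18. In this list 1 gene was called without NC replicate 1 or 2 or without G20 replicate 1 or 2, and none without G20 replicate 4. At an unadjusted p under 0.05 limma had 13 of the 23, and the share of all genes at that p was not counted.

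Among 40 interferon-response genes none rose and 5 fell (12.5%, against 2.9% of all genes), and the median was −0.34. Their median member stood at 0.06 above the control mean on G20 replicate 1 and at −0.52, −0.49 and −0.37 on G20 replicates 2, 3 and 4. Isg15, a ubiquitin-like effector, was at 3.20, 3.72, 3.98 and 3.13 on the NC arrays and 3.26, 1.99, 1.55 and 1.92 on the G20 arrays. Irf9, which relays the interferon signal, fell by 0.999 ± 0.16 and Isg15 by 1.33 ± 0.31 (limma adjusted p = 0.00524 and 0.028), the second lost in 7 of 18 alternatives. Without G20 replicate 1, 15 genes of the list fell, and 1 without NC replicate 2 or without G20 replicate 2, 3 or 4, and 2 without NC replicate 1 or 3.

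Of 20 circadian clock genes 4 rose and 1 fell (20% and 5%, against 4.24% and 2.9% of all genes). Per3, measurable on 1 of 4 NC arrays, rose by 1.71 ± 0.38, Cry2 rose by 0.57 ± 0.11 and Cry1 fell by 0.66 ± 0.18 (limma adjusted p = 0.0228, 0.0108 and 0.046), the last lost in 9 of 18 alternatives. Nr1d1, the repressor REV-ERBα, was at −3.96, −2.73, −1.59 and −4.38 on the NC arrays and −1.74, −0.97, −1.36 and −0.84 on the G20 arrays. The groups overlapped, and its rise of 1.93 ± 0.49 (limma adjusted p = 0.0385) was lost in 10 of 17 alternatives. Arntl, Per2 and Dbp differed by −0.35 ± 0.12, −0.35 ± 0.12 and 0.96 ± 0.28 (limma adjusted p = 0.0929, 0.0935 and 0.062). No hour of tissue collection is stated in the sources used here. The clock list had 1 riser without NC replicate 2, NC replicate 4 or G20 replicate 2, and 2 without NC replicate 1 or G20 replicate 4.

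The largest remaining changes were in genes of varied function. The smallest p of the comparison belonged to 2810410L24Rik, a gene with no symbol of its own that was named after its values were seen, at 0.63, 0.67, 0.49 and 0.79 on the NC arrays and −1.89, −2.06, −1.90 and −2.13 on the G20 arrays. It fell by 2.64 ± 0.10 (limma adjusted p = 1.16e-07), with arrays of each group close together. Next came Cyp4a12a. Gcnt1, which branches mucin-type sugar chains, was at 1.997, 2.60, 1.67 and 2.68 on the NC arrays and −1.38, −1.81, −1.81 and −1.79 on the G20 arrays. It fell by 3.94 ± 0.28 (limma adjusted p = 5.65e-05), and its 3 probes ranged from −3.94 to −0.98. Sftpd, surfactant protein D, a lectin of lung and other epithelia, was at −2.33, −2.46, −2.28 and −1.78 on the NC arrays and on no G20 array well above background. It was 10.8-fold lower (limma adjusted p = 1.73e-05). The dynein gene Dnahc17 fell by 3.66 ± 0.49 (limma adjusted p = 0.00176), with probes at −3.66 and −2.04. Among risers, Slc7a10, an exchanger of small amino acids, rose by 1.95 ± 0.22, the lysosomal Rab7b by 2.11 ± 0.48 and the adhesion gene Dsg1c by 2.62 ± 0.43 (limma adjusted p = 0.000909, 0.0249 and 0.00552). Dsg1c was well above background on 1 of 4 NC arrays, and Rab7b was not called under 6 of 18 alternatives. Greb1, an oestrogen-responsive gene, rose by 1.78 ± 0.29, Raet1e, a ligand of natural killer cells, by 1.81 ± 0.26, and the phospholipase Hrasls3 by 1.75 ± 0.33 (limma adjusted p = 0.00562, 0.00234 and 0.00995). Greb1 was well above background on 3 of 4 NC arrays, and Raet1e and Hrasls3 on 1 of 4, so that these differences are set in part by dim signals.

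**Figure D4:**
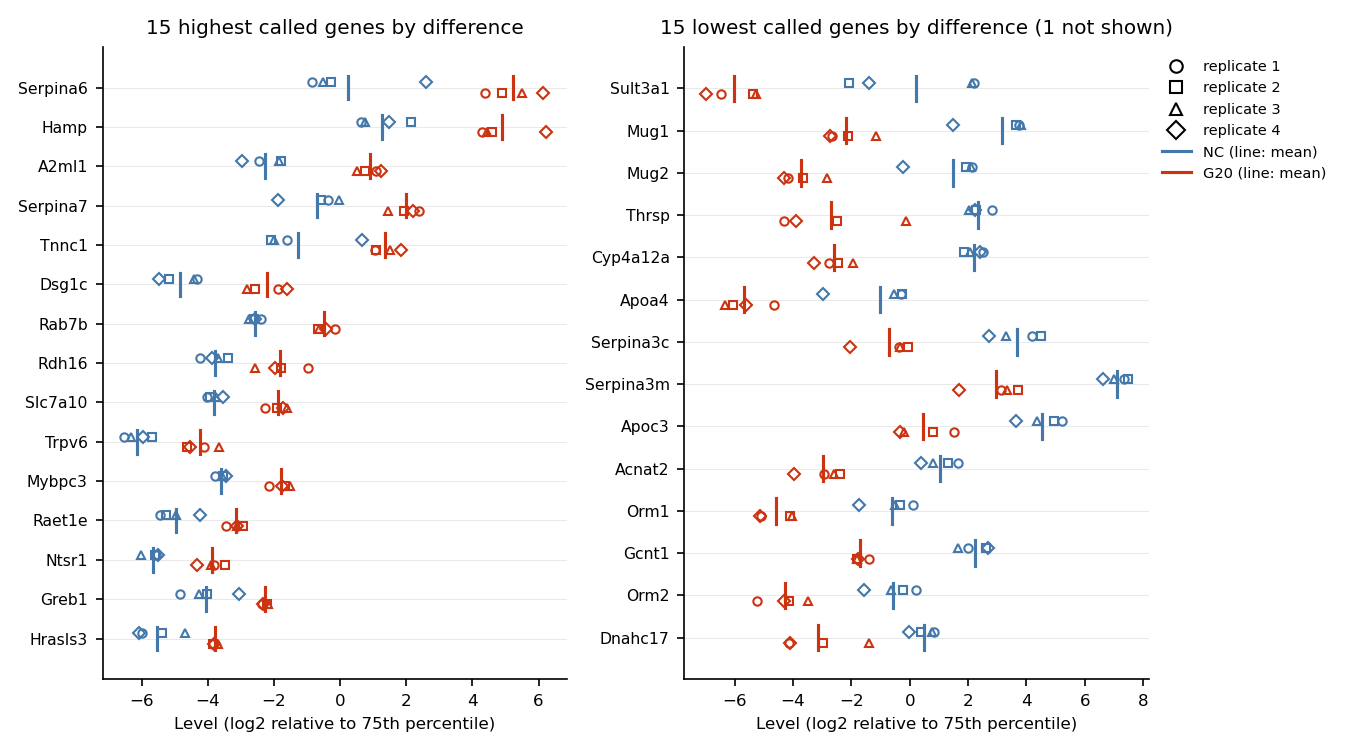
Level on each array (log2, relative to the 75th percentile) of the 15 highest and, but for 1 not reported here, the 15 lowest called genes with a symbol and no overlap between groups. Blue is NC, red is G20, vertical lines are means and each replicate has a symbol. NC replicate 4 (blue diamonds) stands toward G20 for Serpina6 (2.58), Tnnc1 (0.66), Mug1 (1.49) and Apoa4 (−2.96), and the controls split into pairs for Sult3a1.

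In total 24 called genes with a symbol were measurable on all G20 arrays and no NC array, and 6 the reverse. Such genes passed the filter on dim probes only through the group in which they are higher, so they could enter the test only in that direction, and their number and p-values are a description. Those of the first kind named here were dim. Ntsr1, a neurotensin receptor, was 3.46-fold higher (limma adjusted p = 0.000515). The calcium channel Trpv6 was at least 3.09-fold higher, the synaptic scaffold Shank2 at least 2.94-fold, Fam166b at least 2.93-fold and the adhesion receptor Adgrg5 at least 2.19-fold (limma adjusted p = 0.00374, 0.0111, 0.000931 and 0.000178). The olfactory receptor Olfr649 was at least 1.96-fold and Mfsd7a at least 1.93-fold higher (limma adjusted p = 0.00414 and 0.0181), with the call of Mfsd7a lost in 5 of 16 alternatives. All 7 were lower in G20, not higher, when a normexp background model was fitted to the spots, a fit that put the background of every NC array below 0. More probes were well above background on the G20 arrays, and the part of signal strength in these calls was not tested. The reverse kind included Sult3a1, Sftpd and Fgf21, given above, with Tmeff1 at least 3.35-fold and the synaptic gene Rims2 at least 2.65-fold lower (limma adjusted p = 0.0049 and 0.00559).

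A stretch near the start of chromosome 14 (3736511 to 4033227, mm8) held 3 features of a repeated gene family, and all rose. The RIKEN gene 2610042L04Rik was at −3.11, −3.85, −3.71 and −3.58 on the NC arrays and −0.63, −1.77, −1.36 and −1.48 on the G20 arrays. It rose by 2.25 ± 0.25, LOC554327 by 2.11 ± 0.29 and LOC675467 by 2.54 ± 0.41 (limma adjusted p = 0.00087, 0.00225 and 0.00506). In all 3 features G20 replicate 1 was the highest array and G20 replicate 2 the lowest of its group. The copies are near-identical, so these probes are not independent measurements. They were named after their values were seen.

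Markers of muscle and pancreas were measured as well. Muscle genes were among the 15 highest: Tnnc1, the slow and cardiac troponin C, was at −1.61, −2.10, −1.998 and 0.66 on the NC arrays and 1.05, 1.09, 1.495 and 1.84 on the G20 arrays and rose by 2.63 ± 0.52, and Mybpc3, cardiac myosin-binding protein C, was at −3.79, −3.55, −3.58 and −3.46 on the NC arrays and −2.16, −1.66, −1.51 and −1.76 on the G20 arrays and rose by 1.82 ± 0.14 (limma adjusted p = 0.0137 and 6.63e-05). Of 17 measured muscle markers 1 rose, Tnnc1, and 1 fell, Myl7 (5.9% each, against 4.24% and 2.9% of all genes). Myl7 fell by 1.05 ± 0.14 (limma adjusted p = 0.00173). Their summed level, relative to the 75th percentile, was 6.43 to 20.3 in NC and 8.38 to 26.9 in G20. Among skeletal markers Acta1 differed by 1.24 ± 1.75 and Myl1 by 2.05 ± 1.78 (limma adjusted p = 0.714 and 0.518), the median marker of the list stood 1.24 above the control mean on NC replicate 4, and Ckm, Myh1 and Mb were not above background throughout either group. Their part in the rise of Tnnc1 was not tested. Among 7 pancreas markers 1 rose, the amylase Amy2a5 (14.3%, against 4.24% of all genes). The median difference of the 7 was −0.13, and 3 of them were above 0. Amy2a5 was at 2.53, 2.93, 2.001 and 2.10 on the NC arrays and 3.12, 4.22, 4.62 and 4.196 on the G20 arrays and rose by 1.65 ± 0.30 (limma adjusted p = 0.00902). The summed level of pancreas markers was 5.68 to 9.65 in NC and 10.7 to 25.6 in G20, mostly the signal of this gene, and Prss2, Pnlip and Ins1 were not above background throughout either group.

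Markers of the cells of the liver itself were called in some lists and not in others. None of 17 erythroid, 9 megakaryocyte, 12 neutrophil and 10 B lymphoid markers was called by limma, and 5, 4, 0 and 2 of them had an unadjusted p under 0.05. Of 17 Kupffer cell markers 1 rose, Mrc1 (5.9%, against 4.24% of all genes), with 4 at an unadjusted p under 0.05. Among endothelial, stellate and cholangiocyte markers 6 of 20, 13 of 22 and 5 of 7 had an unadjusted p under 0.05. The share of all genes at that p was not counted, so these counts have no base to be read against. Of 20 endothelial markers 3 fell (15%, against 2.9% of all genes), with a median of −0.18. These were Lyve1, Sox18 and Tie1, the last 2 lost in 7 of 18 and 10 of 18 alternatives. Without any 1 of NC replicates 1, 2 and 3 and G20 replicate 2, 1 fell. Lyve1, of sinusoidal and lymphatic endothelium, was at 2.28, 2.25, 2.25 and 2.26 on the NC arrays and 1.59, 1.31, 1.61 and 1.52 on the G20 arrays. Lyve1 fell by 0.75 ± 0.14 (limma adjusted p = 0.00902). Of 22 stellate cell and fibroblast markers 3 fell and 1 rose (13.6% and 4.5%), with a median of −0.27. The falls were Thy1, Mgp and Lrat, the last lost in 7 of 18 alternatives. Falls numbered 5 without G20 replicate 1 and 1 without G20 replicate 2. Thy1 fell by 1.27 ± 0.26 (limma adjusted p = 0.0148). Of 7 cholangiocyte markers 1 rose and 1 fell (14.3% each), with a median of −0.53. The fall was that of Epcam, by 1.30 ± 0.22 (limma adjusted p = 0.00675).

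Housekeeping groups had few called genes. None of 80 ribosomal and 38 proteasome genes was called by limma (4 and 3 at an unadjusted p under 0.05). Of 79 genes of oxidative phosphorylation 1 rose, Cox6b2 (1.3%, against 4.24% of all genes), a call lost in 10 of 18 alternatives. These lists had medians of 0.04, −0.05 and 0.09 against 0.03 for all genes. Of 45 cell cycle genes 2 rose and 2 fell (4.4% each, against 4.24% and 2.9% of all genes). The counts were 1 to 2 and 0 to 1 with any single array left out, and Mki67 differed by 0.06 ± 0.09 (limma adjusted p = 0.731). Among 26 fetal liver genes Plagl1 and Dlk1 rose (7.7%, against 4.24% of all genes), and Afp, H19 and Gpc3 differed by 0.10 ± 0.08, −0.19 ± 0.10 and 0.18 ± 0.10 (limma adjusted p = 0.481, 0.295 and 0.293). Of 49 hepatocyte transcription factors 5 rose and 1 fell (10.2% and 2%, against 4.24% and 2.9% of all genes). Hnf4a, Cebpa and Foxa2 differed by 0.15 ± 0.09, 0.00 ± 0.15 and 0.03 ± 0.13 (limma adjusted p = 0.321, 0.995 and 0.93). Gata4 was called higher (limma adjusted p = 0.0062), but the probe was well above background on no NC array and the call was lost in 3 of 17 alternatives. The number of risers in this list was 1 to 4 with any single array left out. None of 9 germline genes known to be silenced by DNA methylation was called by limma, and none of the 9 had an unadjusted p under 0.05. Of 36 genes of the DNA methylation and chromatin machinery 1 rose, Kdm6b (2.8%, against 4.24% of all genes). It rose by 0.49 ± 0.12 (limma adjusted p = 0.0382), a call lost in 11 of 18 alternatives. The maintenance and new methyltransferases Dnmt1 and Dnmt3a differed by 0.07 ± 0.12 and 0.37 ± 0.11 (limma adjusted p = 0.783 and 0.0721).

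**Figure D5:**
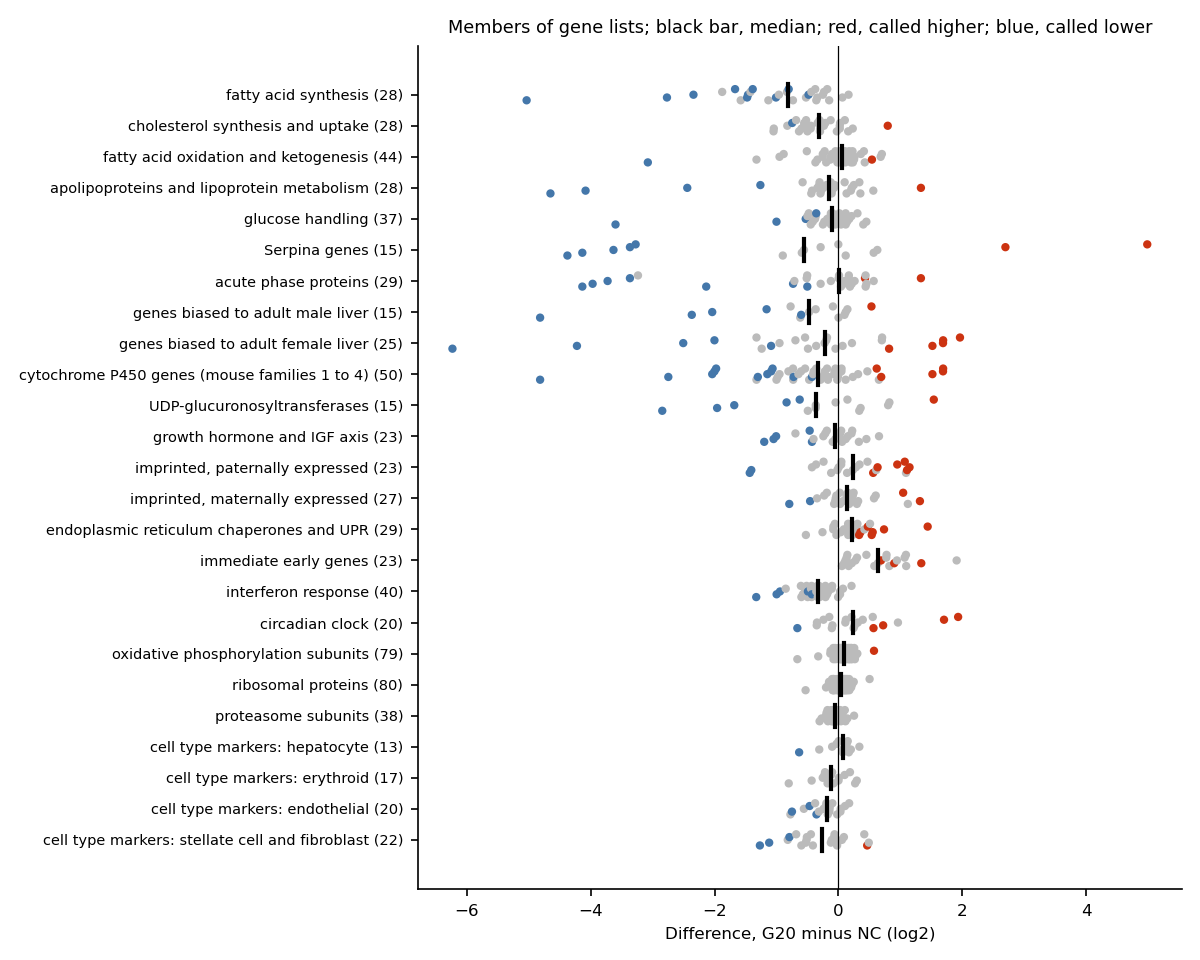
Difference between G20 and NC (log2) of the measured members of 25 gene lists, 1 point per gene, with the number of measured members in brackets and a black bar at the median. Red points were called higher and blue points lower. The median is −0.82 for fatty acid synthesis, 0.64 for immediate early genes and 0.04 for ribosomal proteins.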

How the data were processed

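Each liver RNA was labelled with Cy3 after linear amplification and hybridised to its own array, per the labels. The deposited scanner files hold background-corrected, processed intensity values from Agilent Feature Extraction 9.5.3.1, per the file headers and the submitters' processing notes. The authors also deposited a table of linear intensity values (medians of 223.6 to 341.3 on the liver arrays) whose scaling is not stated. Centred here on the log2 scale, it served as an alternative. Its log2 ratio to the scanner values had an SD of 0.011 to 0.0554 for NC and G20. For CC the SD was 0.6283 to 0.6566, and the cause was not tested. Probe positions (mm8) are per the file headers. From the intensities, log2 values were centred on the 75th percentile of each array, control and outlier spots were left out, and 41174 probes were averaged over their spots. RefSeq (GRCm38.p6) named 23374 probes by accession and the files named 17800. limma 3.58.1 in R 4.3.3 was fitted to 12 liver arrays, with Benjamini-Hochberg adjustment over 16701 genes, and was tested on simulated data. Arrays give no read depth, and the 4 arrays per group limit the precision. A fold given as "at least" sets the mean of the brighter group against a mean of the other group. In that mean an array counts at the dimmest signal well above background, or at the probe's own signal where this was higher. For Ntsr1 and Sftpd this fold equals the plain fold (3.46 and 10.8) and is no lower bound, so it is given without "at least". Genes were named by rule: the 15 highest and the 15 lowest without overlap, key and leading called members of the gene lists, and genes measurable in 1 group alone, with exceptions stated, and some of these genes are not reported here. The lists and these rules were chosen with earlier results of these data known. Alternatives changed the background correction, scaling, probe filter, outlier spots, probe summary, arrays in the fit, source of values, block and single arrays. "Alternatives" beside a lost call leaves out normexp fitted to all spots, and is fewer than 18 where a filter dropped the gene.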

Additional observations from a re-analysis of the deposited data

Results flagged for a closer look

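Among 355 sets of 4 arrays of 1 group, over the genes named, 21 had an array whose distance to the nearest of the others took up most of the range of the group. Chance alone gives this for about 1 set in 20. NC replicate 4 was the array apart in 8 of them. It stood at 1.49 for Mug1 (the other controls 3.64 to 3.80), −0.23 for Mug2 (1.93 to 2.13), −0.59 for their neighbour NAP001160-001 (1.75 to 1.84), −2.96 for Apoa4 (−0.54 to −0.27), 3.60 for Apoa5 (5.46 to 5.78), 5.14 for Igfbp2 (7.07 to 7.22), 6.11 for Cdkn1c (4.29 to 4.36) and −3.64 for Cyp2b13 (−2.23 to −2.06). For all of these but Cyp2b13 the array departed from the other controls in the direction of G20, and for Igfbp2, which was not called, it went past the G20 arrays (6.25 to 6.66). Cyp2b13 rose in G20 while this control was the lowest.

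G20 replicate 4 was apart in 6 sets. It had 6.21 for Hamp (the other G20 arrays 4.30 to 4.58), −2.05 for Serpina3c (−0.38 to −0.04), 3.50 for Egr1 (2.72 to 2.80), −1.67 for Igfals (−0.94 to −0.80), 6.71 for Dlk1 (6.45 to 6.49) and 1.995 for Impact (1.90 to 1.91), the last 2 within a narrow range. G20 replicate 1 was apart in 4 sets, with −1.73 for Snurf (−3.49 to −3.20), 1.71 for Tfrc (2.49 to 2.53), 2.68 for Cpt1a (2.88 to 2.92) and −1.38 for Gcnt1 (−1.81 to −1.79). The rest were single cases: G20 replicate 2 had −6.27 for Rims2 (−5.78 to −5.71), NC replicate 1 had −1.24 for Gpam (−1.52 to −1.49) and NC replicate 3 had 0.94 for Cdkn1a (1.36 to 1.41).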

How the results depend on the processing

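Of 123 genes named and called, 73 kept their call under all 18 alternatives besides normexp fitted to all spots, as far as a filter left them in, 24 lost it under 1 to 5 and 26 under 6 or more. The numbers of genes called higher, called lower, and called with at least a 2-fold difference were 708, 485 and 296. Leaving out 1 array gave 313 to 673 higher, 270 to 480 lower and 209 to 326 at least 2-fold. The total moved by over 1.5 times without NC replicate 1 or 2 or G20 replicate 2 or 4. Median scaling gave 377 higher, and of all calls 36% were higher, against 59.3% with the 75th percentile and 42.8% with no filter on dim probes. Requiring probes above background in both groups left 192 genes at least 2-fold different. With the replicate number as a block, 382 were higher and 276 lower. Deviations of same-numbered arrays correlated at 0.095, 0.051, 0.074 and 0.038, all positive, and those of arrays with other numbers at −0.189 to 0.138. Not every array correlated best with its own number. With so few arrays this cannot settle whether the numbers pair them. Counts with the replicate block are given only here, but the block is 1 of the 18 alternatives counted beside lost calls. For some genes, such as Elovl6 and Thy1, it was the only alternative under which the call was lost.

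Normexp fitted to all spots gave 854 higher, 4322 lower and 3366 at least 2-fold, and 16.5% of its calls were higher. Its fit put the background mean of the NC arrays at −290.2 to −33.1 and that of the G20 arrays at 5.8 to 6.7. For that reason normexp on negative control spots was added after seeing the data, and it gave 1035 higher, 819 lower and 195 at least 2-fold. Under the first normexp 25 named and called genes turned to lower: Mfsd7a (−1.60), Adgrg5 (−1.60), Olfr649 (−1.56), Gata4 (−1.53), Ugt1a9 (−1.41), Fam166b (−1.36), Trpv6 (−1.35), Shank2 (−1.32), Ntsr1 (−1.28), Hrasls3 (−1.19), Cyp2b10 (−1.11), Per3 (−1.07), Derl3 (−1.05), Raet1e (−1.001), LOC552906 (−0.92), Gsta2 (−0.82), Greb1 (−0.55), LOC675467 (−0.52), Dsg1c (−0.43), Rdh16 (−0.33), Slc7a10 (−0.27), Mybpc3 (−0.26), LOC554327 (−0.22), Tox (−0.10) and Nr1d1 (−0.041). Quantile normalization turned Fgb, which was not called, to −0.39. The spread within groups differed by −0.106 to 0 (G20 minus NC) over its alternatives, with exact permutation p of 0.3143 to 1, likewise only a guide. Dim genes, whose groups differ in signal above background, are the least certain.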

Other observations

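Hormone-responsive genes changed in both directions. Serpina6 and Serpina7, the carriers of glucocorticoid and thyroxine, rose. Of 24 glucocorticoid-responsive genes, Serpina6 included, 4 rose and 2 fell (16.7% and 8.3%, against 4.24% and 2.9% of all genes). The median was 0.21. Without NC replicate 1 or G20 replicate 2, 3 or 4 only 1 rose, and 2 without NC replicate 2 or 3. The receptor target Fkbp5 differed by 0.27 ± 0.20 and Tsc22d3 by −0.27 ± 0.11 (limma adjusted p = 0.435 and 0.145). Mt1, a metallothionein, was at 6.10, 6.28, 6.42 and 7.29 on the NC arrays and 7.11, 7.59, 7.69 and 8.08 on the G20 arrays, and rose by 1.09 ± 0.26 (limma adjusted p = 0.0272), a call lost in 7 of 18 alternatives. Of 17 thyroid hormone-responsive genes 1 rose, Serpina7, and 3 fell (5.9% and 17.6%). The falls were Thrsp, Me1 and Ttr, the last lost in 12 of 18 alternatives, while Klf9 differed by 0.42 ± 0.24 (limma adjusted p = 0.318).

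Few genes of amino acid and bile acid handling were called. Of 51 genes of the urea cycle and amino acid breakdown 2 rose and 2 fell (3.9% each, against 4.24% and 2.9% of all genes). The counts were 0 to 2 and 0 to 1 with any single array left out. Cps1, which starts the urea cycle, differed by −0.10 ± 0.16, and Tdo2, which opens tryptophan breakdown, by −1.77 ± 0.54 (limma adjusted p = 0.741 and 0.0708). Tdo2 stood at −0.58, −0.38, −0.15 and −2.60 on the NC arrays and −3.31, −2.25, −1.83 and −3.40 on the G20 arrays, where NC replicate 4 was within the range of the clones. Of 25 bile acid genes 1 rose and 2 fell (4% and 8%), with a median of −0.36. Without NC replicate 4, 6 fell, and 1 without any 1 of NC replicates 1, 2 and 3 and G20 replicates 1, 2 and 4. Slc51b, a subunit of the basolateral bile acid exporter, fell by 2.31 ± 0.59 with 2 of 4 G20 arrays well above background (limma adjusted p = 0.0387). It was not called under 9 of 16 alternatives. Cyp7a1, the rate-limiting enzyme of bile acid synthesis, differed by −0.42 ± 0.26 (limma adjusted p = 0.347). Among 26 p53-responsive genes none rose and 2 fell (7.7%), while the list's median was 0.20. Cdkn1a fell by 0.73 ± 0.15 and Phlda3 by 0.88 ± 0.16 (limma adjusted p = 0.0174 and 0.00798). Of the 26 differences 20 were above 0, and 13 genes had an unadjusted p under 0.05, a share that was not counted over all genes. In this list 3 rose without NC replicate 3 and 1 without NC replicate 4 or G20 replicate 3.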
